A study of Mus musculus with 4 samples.

Results

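Toll-like receptors are the membrane sensors through which macrophages, other leukocytes and Schwann cells detect microbial products and molecules released by damaged tissue. The transcripts of 9 of them, Tlr1 to Tlr9, and of their shared adaptor Myd88 were followed in mouse sciatic nerve. These 10 genes were taken by symbol from a table of 50593 genes, and each was found there once. In the group labelled HSF V30M, Tlr3, Tlr5 and Tlr6 were lower than in the group labelled HSF WT by more than 1.5-fold. This rule adds 1 to each value and asks for a mean of at least 1. By the same rule, 8.44% of 15620 expressed genes were lower in HSF V30M. Without the added 1, Tlr7 passed the fold too, and Tlr1, under that mean, was 1.88-fold higher in HSF WT. Tlr4, Tlr8 and Myd88 had nearly the same level in both groups.

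The table compared total RNA of sciatic nerve from 6-month-old mice of strain 129S1/SvImJ, with 2 mice per group in the sample labels. The methods give n = 4 without saying whether this is per group. Both groups were heterozygous for a deletion of Hsf1, the gene of heat shock factor 1, in an Sv/129 background. HSF WT mice served as controls, and HSF V30M mice carried in addition a transgene for human transthyretin with the V30M mutation in a background null for endogenous Ttr. This line models hereditary transthyretin amyloidosis, in which the mutant protein deposits in peripheral nerve, and the comparison asks how its nerve differs from that of controls with the same Hsf1 allele. The promoter of the transgene is not given in the sources used here. Libraries were made with Ion Torrent protocols. Each gene has 1 value per group in FPKM, that is fragments per kilobase of transcript scaled to the size of the library. From these values no spread between mice, no test and no replicate check could be computed for any difference given here. The test columns of the authors' own comparison were not used.

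The genes altered by design were looked at first. Mouse Ttr, on chromosome 18, should be null under the label HSF V30M, yet its FPKM there was 6.10, or about 130 to 154 fragments. Under the label HSF WT it was 0, where 3 fragments would have given 0.198. Reads were aligned to a mouse reference that lacks the human transgene, and reads of the transgene and of mouse Ttr cannot be told apart in the table. Ttr would go against the labels only if its reads came from mouse Ttr. Which gene they came from was not tested, so Ttr is no check of the labels. From this table alone, exchanged labels and reads of the transgene cannot be told apart, and an exchange would reverse every direction given here. The study also measured chemokines outside this table. By RT-PCR it reports several as lower in HSF V30M nerve, the way the labels run. By ELISA at 6 months it reports CCL20 as lower in HSF V30M serum, while CXCL2 did not differ significantly. From the RNA sequencing itself, the study lists CCL8 and CCL5 as lower in V30M nerve, and CXCL3 and CCL20 as not detected there. Ccl2, which the study names among the lower chemokines but not in that list, was higher in HSF V30M in this table. It had 13.1 FPKM against 7.91, and was picked after its value had been seen. The study's own chemokine results were not used here, and whether the labels were exchanged was not tested. The groups are named by their labels throughout. Hsf1 had 7.94 FPKM in HSF V30M and 15.0 FPKM in HSF WT, although both carry 1 deleted copy. The tissue label fitted its markers. All 10 Schwann cell genes listed had a mean FPKM above 1.

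Among the receptors, Tlr1, Tlr2, Tlr4, Tlr5 and Tlr6 act at the cell surface and Tlr3, Tlr7, Tlr8 and Tlr9 in endosomes. Tlr2 pairs with Tlr1 or Tlr6 to bind bacterial lipopeptides, Tlr4 binds lipopolysaccharide together with Ly96, and Tlr5 binds flagellin. Tlr3 recognises double-stranded RNA, Tlr7 single-stranded RNA and Tlr9 unmethylated CpG DNA, and Tlr8 is the closest relative of Tlr7. Myd88 links all of them except Tlr3 to the Irak kinases and NF-kappaB, whereas Tlr3 signals through Ticam1 and Tlr4 uses both routes. In injured nerve these receptors take part in the clearance of myelin by macrophages and in the activation of Schwann cells.

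Some members lie side by side in the genome or share sequence, which bears on how reads were divided between them. In the GENCODE annotation of GRCm38, Tlr1 (ENSMUSG00000044827, chr5:64924679-64933563) and Tlr6 (ENSMUSG00000051498, chr5:64952031-64960097) lie on the minus strand with 18.5 kb between them. Tlr8 (chrX:167242696-167264329) and Tlr7 (chrX:167304929-167330558) are also neighbours on the minus strand, 40.6 kb apart. Of the 45 pairs of members, 1 pair shared any stretch of 100 bases between its longest transcripts, namely Tlr1 and Tlr6. They had 259 such stretches in common, 8.85% of those in Tlr1 and 7.24% of those in Tlr6, and the longest identical run had 229 bases. It is coding sequence in both genes, at chr5:64925537-64925765 in Tlr1 and chr5:64953828-64954056 in Tlr6. The last 60 bases of that run and the 60 coding bases that follow it are shown on the minus strand to let the likeness be seen, with the 2 bases that differ between the genes in capitals. They span chr5:64925477-64925596 in Tlr1 and chr5:64953768-64953887 in Tlr6.
Tlr1: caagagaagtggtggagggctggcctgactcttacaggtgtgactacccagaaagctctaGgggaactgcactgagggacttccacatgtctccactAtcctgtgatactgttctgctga
Tlr6: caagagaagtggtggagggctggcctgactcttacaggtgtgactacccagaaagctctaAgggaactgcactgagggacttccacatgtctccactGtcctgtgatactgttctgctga
How the reads of such stretches were assigned is not given in the sources used here, so the split between Tlr1 and Tlr6 is uncertain to that extent.

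The sequence before the transcription start is shown for Tlr5 and Tlr6, which were both lower past the fold, and for Tlr8, which had nearly the same level in both groups. RefSeq windows of GRCm38.p6 were at hand for 8 of the 10 members, with 10 starts, and Tlr4 and Tlr7 were not among them. In the 250 bases before each start, 3 motifs were searched on both strands. GAGGAA is the core bound by PU.1, the myeloid factor. The interferon-type repeat, bound by interferon regulatory factors, was searched as GAAA, any 2 bases and GAAA again, and the kappaB site as GGGA, any 2 bases and TTCC. Over 32841 promoter windows of the same length, 23.3% held the first, 2.98% the second and 1.21% the third. Each window is given on the strand of its gene, with matches in capitals. That of Tlr5 is chr1:182954538-182954787 on the plus strand. The Tlr6 window, that of 1 of its 2 starts, chr5:64959167-64959416 on the minus strand, lies in an intron of the longest annotated transcript, and the Tlr8 window is chrX:167264330-167264579 on the minus strand. None of these 3 windows overlaps an annotated exon.
Tlr5: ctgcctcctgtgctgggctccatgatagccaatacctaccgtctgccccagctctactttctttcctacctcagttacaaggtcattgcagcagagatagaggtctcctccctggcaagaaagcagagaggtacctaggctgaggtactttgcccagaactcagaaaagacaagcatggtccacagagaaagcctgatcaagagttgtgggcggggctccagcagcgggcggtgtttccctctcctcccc
Tlr6: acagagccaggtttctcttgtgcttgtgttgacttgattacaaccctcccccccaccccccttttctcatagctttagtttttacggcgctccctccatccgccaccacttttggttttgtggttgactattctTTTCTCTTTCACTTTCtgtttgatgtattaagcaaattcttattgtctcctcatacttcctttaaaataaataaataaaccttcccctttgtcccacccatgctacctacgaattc
Tlr8: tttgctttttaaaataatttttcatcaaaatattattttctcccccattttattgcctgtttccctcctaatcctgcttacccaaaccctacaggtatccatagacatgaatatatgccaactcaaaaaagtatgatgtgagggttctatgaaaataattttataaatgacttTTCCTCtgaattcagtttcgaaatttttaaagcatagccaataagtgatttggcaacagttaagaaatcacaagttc
Tlr5 held none of the 3 motifs in its window. Tlr6 held 2 overlapping matches to the interferon-type repeat on the opposite strand, the first beginning 116 bases before the start, while the window of its other start, chr5:64960049-64960298, held none of the 3 motifs. Tlr8 held GAGGAA on the opposite strand, 77 bases before it. Tlr3, the other member lower past the fold, held 1 match to the kappaB site, 211 bases before its start, in a stretch that overlaps annotated exons of Tlr3 and of the antisense gene Gm45542. It is shown with 10 bases on either side, at chr8:45410572-45410601 on the minus strand.
Tlr3: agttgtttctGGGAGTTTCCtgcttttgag
Among the other members, 1 start of Tlr1 and that of Tlr9 held GAGGAA, and that of Myd88 held 1 interferon-type repeat. These matches describe letters in the windows and do not show binding.

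The levels of the members were low to moderate for this tissue. Myd88 had 8.83 FPKM in HSF V30M and 9.71 FPKM in HSF WT, and Tlr4 (ENSMUSG00000039005, chr4:66827584-66930284) had 8.70 and 8.57. In HSF V30M these values lay above those of 50.4% and 50.1% of the 15620 genes whose mean FPKM reached 1, so both genes stood near the middle of the expressed genes. Tlr1 was the lowest member, with 0.39 in HSF V30M against 0.734 in HSF WT, and was the only one with a mean FPKM under 1. Tlr4 made up 38.7% of the summed FPKM of the 9 receptors in HSF V30M and 28.0% in HSF WT. FPKM is a level per transcript length, so these levels can be set beside each other.

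The remaining receptors lay between Tlr1 and Tlr4 in both groups. In HSF V30M the order from high to low was Tlr8, Tlr6, Tlr2, Tlr3, Tlr5, Tlr7 and Tlr9, from an FPKM of 2.58 for Tlr8 to 1.25 for Tlr9. In HSF WT it was Tlr6, Tlr3, Tlr2, Tlr5, Tlr8, Tlr7 and Tlr9, from 4.55 for Tlr6 to 1.86 for Tlr9. The most visible change of place was that of Tlr8, which led these 7 genes in HSF V30M and stood below 4 of them in HSF WT with almost the same FPKM. Counting error alone was large enough that neighbours in these orders could not be ranked. With 95% exact Poisson intervals computed on the longest transcript of each gene, the intervals of neighbouring genes overlapped in both groups, except between Tlr4 and the next receptor and between Tlr9 and Tlr1. With the shortest transcript, the gap below Tlr4 was still clear in HSF V30M but not in HSF WT, and that between Tlr9 and Tlr1 was not clear in either group.

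**Figure D1:**
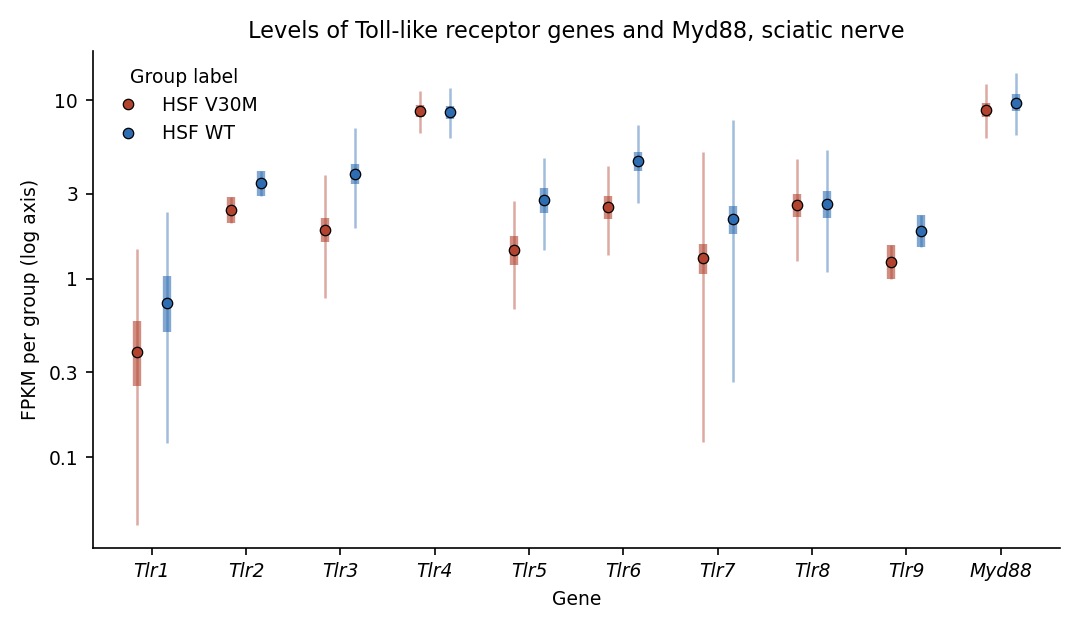
FPKM of each member in the groups labelled HSF V30M and HSF WT, on a log axis; points are the values per group, thick bars the 95% Poisson intervals if all fragments came from the longest transcript, and thin bars those for the shortest transcript, covering counting error only. Tlr4 and Myd88 stand highest in both groups and Tlr1 lowest, and the HSF WT point lies above the HSF V30M point for every gene except Tlr4.

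Between the groups, 9 of the 10 members had a lower FPKM in the group labelled HSF V30M, and Tlr4 had a slightly higher one. Of the 15620 genes whose mean FPKM reached 1, 49.6% had a lower FPKM in HSF V30M. Among the 8381 with a mean from 1 to 10, 50.7% did. A gene was counted as past the fold where the ratio of FPKM + 1 was beyond 1.5 in either direction and the mean FPKM was at least 1. By this rule 3 of the 9 members with that mean were lower in HSF V30M, while 0 were higher. Of all 15620 genes, 8.44% were lower and 8.22% higher by the same rule. Among the 8381 genes with a mean FPKM from 1 to 10, the range in which the 9 members lie and a comparison chosen after seeing the data, 10.9% were lower. Expressed as HSF V30M over HSF WT, the median log2 ratio of the 9 members was -0.37, and that of all 15620 genes was 0.0030. Log2 ratios are on the scale of FPKM + 1, which understates differences of low genes. In whole tissue, fewer cells of a type and less RNA per cell cannot be told apart.

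**Figure D2:**
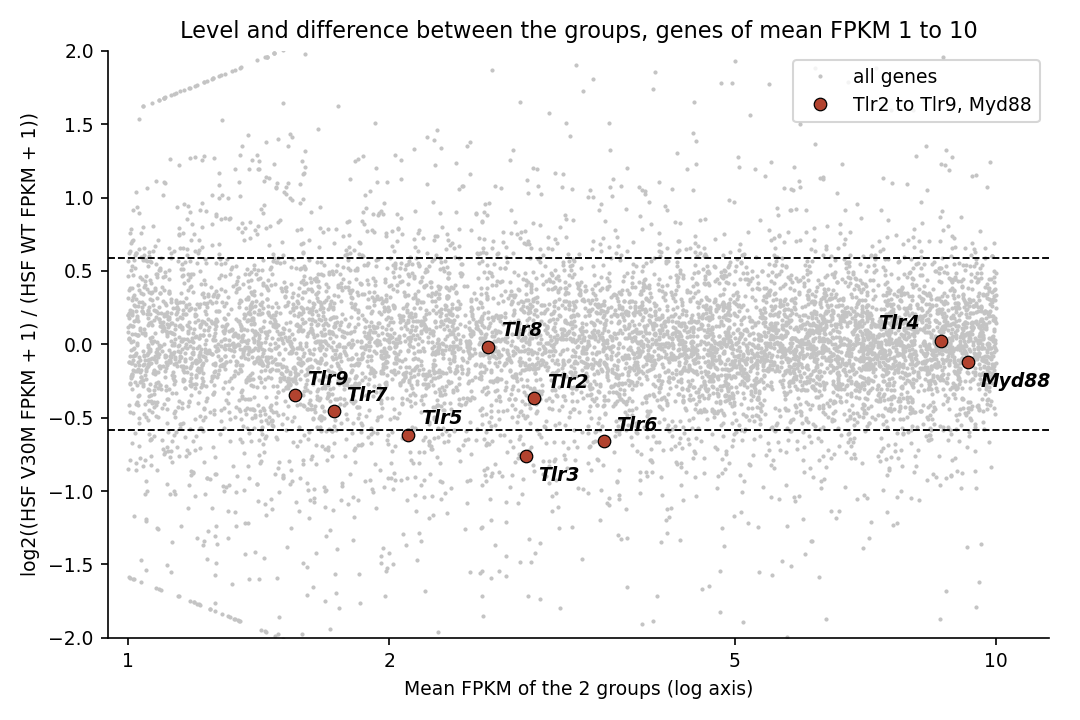
Mean FPKM of both groups, on a log axis, against the log2 ratio between the groups (HSF V30M over HSF WT) for the 8381 genes with a mean FPKM from 1 to 10 (grey), with the 9 members of that range in red; dashed lines mark the 1.5-fold limits and 350 genes lie beyond the vertical axis. Tlr3, Tlr6 and Tlr5 lie below the lower line, and Tlr8, Tlr4 and Myd88 lie near 0.

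Tlr3, the sensor of double-stranded RNA, had 1.88 FPKM in HSF V30M and 3.87 FPKM in HSF WT, a level 2.06-fold higher in HSF WT and a log2 ratio of -0.76. Tlr6, the partner of Tlr2, had 2.51 and 4.55, which is 1.81-fold higher in HSF WT with a log2 ratio of -0.66. Tlr5, the flagellin receptor, had 1.45 and 2.76, which is 1.90-fold higher in HSF WT with a log2 ratio of -0.62. These 3 members therefore included both surface and endosomal receptors. Tlr7, with 1.30 FPKM in HSF V30M and 2.15 FPKM in HSF WT, stayed inside the fold with a log2 ratio of -0.45, and passed it when no pseudocount was added. Without a pseudocount 4 of the 9 members were lower past the fold, against 11.2% of all genes. Tlr1 had a 1.88-fold higher FPKM in HSF WT but was under the minimum mean.

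Tlr2 and Tlr9 were lower in HSF V30M without passing the fold. Tlr2 had 2.44 FPKM in HSF V30M and 3.44 FPKM in HSF WT, with a log2 ratio of -0.37. Tlr9 had 1.25 and 1.86, with a log2 ratio of -0.35. Tlr8, Tlr4 and Myd88 had log2 ratios of -0.02, 0.02 and -0.12. Tlr8 had 2.58 FPKM in HSF V30M and 2.62 FPKM in HSF WT, so the neighbours Tlr7 and Tlr8 had ratios of 0.60 and 0.98. On the longest transcripts the counting intervals of these ratios, 0.46 to 0.79 for Tlr7 and 0.78 to 1.24 for Tlr8, just overlapped.

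Summed over the 5 surface receptors, FPKM was 15.5 in HSF V30M against 20.05 in HSF WT, and 4 of the 5 were lower. Over the 4 endosomal receptors the sums were 7.01 and 10.5, and all 4 were lower. Among all genes whose mean FPKM reached 1, 49.6% were lower. The ratio of the sums was 0.77 for the surface and 0.67 for the endosomal receptors. Tlr4 weighed on the surface sum, since without it the surface ratio was 0.59, below that of the endosomal receptors. The order of these ratios thus rests on Tlr4.

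The number of fragments behind each value sets how far these differences can be read. Tlr2 (ENSMUSG00000027995, chr3:83836272-83841767) and Tlr9 (ENSMUSG00000045322, chr9:106222598-106226883) have 1 annotated transcript each, so that their fragment numbers are known best. Tlr2 rested on about 149 to 176 fragments in HSF V30M and 149 to 201 in HSF WT, and the 95% interval of its ratio, HSF V30M over HSF WT, ran from 0.56 to 0.90. Tlr9 rested on 89 to 105 and 94 to 127 fragments, with an interval of 0.50 to 0.91. In both genes the difference between these libraries was thus larger than counting error, although neither passed the fold. These are exact conditional intervals for a ratio of 2 counts, and they hold for the libraries and not for the genotypes, since the spread between mice is not known.

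The members past the fold have several annotated transcripts of very different length, so their fragment numbers are known only within wide limits. Tlr3 (ENSMUSG00000031639, chr8:45395665-45411080) has 9 transcripts of 382 to 4407 bases, and its values stand for 7 to 203 fragments in HSF V30M and 11 to 338 in HSF WT. The interval of its ratio was 0.40 to 0.59 with the longest transcript and 0.16 to 1.36 with the shortest. For Tlr6, with 2 transcripts of 446 and 3677 bases, the intervals were 0.45 to 0.67 and 0.25 to 1.19. Those of Tlr5 (ENSMUSG00000079164, chr1:182954788-182976044) were 0.41 to 0.67 and 0.20 to 1.33. Over the 10 members, 7 had an interval wholly below 1 with the longest transcript, all but Tlr4, Tlr8 and Myd88, and with the shortest transcript 2 did, Tlr2 and Tlr9. No member had an interval wholly above 1 in either case.

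Overlapping genes touched a pair of members. The antisense gene Gm45542 covers 7.32% of the exonic bases of Tlr3 and had 0.36 FPKM in HSF V30M and 0 FPKM in HSF WT. Acaa1a, a peroxisomal thiolase gene on the opposite strand, covers 11.3% of the exonic bases of Myd88 (ENSMUSG00000032508, chr9:119335934-119341411) and was far more abundant, with 44.1 in HSF V30M against 46.7 in HSF WT. Whether counting used the strand is not given in the sources used here, and without it reads from these partners cannot be told apart. The level of Myd88 is uncertain for this reason.

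The wider pathway was described with 9 lists of 71 further genes, of which 56 had a mean FPKM of at least 1. Of these, 4 were lower and 3 higher in HSF V30M past the fold, against 8.44% and 8.22% of all genes, and their median log2 ratio was -0.054. The list medians ran from -0.48 for the coreceptors to 0.30 for the endogenous ligands.

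Of the other mouse receptors, Tlr13, which recognises bacterial ribosomal RNA, had the highest level with 1.28 FPKM in HSF V30M and 2.07 FPKM in HSF WT. Its log2 ratio of -0.43 did not pass the fold. Tlr11 was the lowest with 0.11 and 0.267. Tlr12 had 0.16 FPKM in HSF V30M and 0.952 FPKM in HSF WT, a log2 ratio of -0.75. Both genes were under the minimum mean FPKM of 1.

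Coreceptors help surface receptors to bind their ligands. All 6 had a lower FPKM in HSF V30M, against 49.6% of all genes whose mean FPKM reached 1. Their median log2 ratio was -0.48, and 2 of the 6 passed the fold. Cd36, a scavenger receptor that presents lipids to Tlr2 with Tlr6 and is also abundant in fat and endothelium, had the highest level of the list in HSF WT with an FPKM of 130, and 61.0 in HSF V30M, a log2 ratio of -1.08. Cd180, a receptor homologue of B cells and myeloid cells, had 1.93 FPKM in HSF V30M and 4.08 FPKM in HSF WT, a log2 ratio of -0.79. The lowest level was that of Ly96, the partner of Tlr4, with 1.57 FPKM in HSF V30M and 2.35 FPKM in HSF WT.

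Trafficking factors fold the receptors and carry them to the surface or to endosomes. All 6 had a lower FPKM in HSF V30M, against 49.6% of all genes whose mean FPKM reached 1. Their median log2 ratio was -0.34, and 0 passed the fold. Hsp90b1, the chaperone gp96, was the most abundant, with 82.9 FPKM in HSF V30M and 111 FPKM in HSF WT. Cnpy4 was the least abundant, with 12.0 and 15.6.

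Of the 4 adaptors other than Myd88, 2 had a mean FPKM of at least 1 and 0 passed the fold, with a median log2 ratio of -0.093. Tirap, which brings Myd88 to surface receptors, had 8.75 FPKM in HSF V30M and 8.85 FPKM in HSF WT, and Ticam2, the bridge from Tlr4 to Ticam1, was the lowest with 0.50 and 0.689. Of the 16 downstream signalling genes, which encode kinases, ubiquitin ligases and their binding partners, 6 had a lower and 10 a higher FPKM in HSF V30M and 0 passed the fold. Their median log2 ratio was 0.025. Tab2 had the highest mean of them with 44.8 FPKM in HSF V30M and 35.9 FPKM in HSF WT, and Tab3 the least, with 4.10 and 3.79.

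Among the 6 transcription factors, Irf8 alone passed the fold. This factor of macrophages, dendritic cells and B cells had 7.25 FPKM in HSF V30M and 14.7 FPKM in HSF WT, a log2 ratio of -0.92. Irf3, which acts below Ticam1, was the most abundant with 40.7 and 37.3. Irf5, which is activated through Myd88, was the least abundant with 4.23 and 6.77, and its log2 ratio of -0.57 lay just inside the fold. The median of the list was 0.046.

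Of the 11 inhibitors, 1 passed the fold and was higher in HSF V30M. It was Tnfaip3, the ubiquitin-editing enzyme A20, with 8.86 FPKM in HSF V30M and 5.49 FPKM in HSF WT and a log2 ratio of 0.60. Nfkbia, which holds NF-kappaB in the cytoplasm, was the most abundant with 82.3 and 70.7. The lowest was Socs1 with 0.87 and 1.30, and the median of the list was 0.083.

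Genes that receptor stimulation induces in myeloid cells mostly had low levels. Of 13, 11 had a mean FPKM under 1, and the other 2 stayed inside the fold with a median log2 ratio of -0.33. The highest was Nfkbiz, with 5.56 FPKM in HSF V30M and 6.97 FPKM in HSF WT. In HSF V30M, 4 of the 13 were listed at 0, namely Saa3, Ifnb1, Il12b and Il10, and in HSF WT Acod1 was. At these depths 3 fragments on the shortest transcript would have given 0.471 for Saa3 in HSF V30M, where its FPKM in HSF WT was 0.441. For Ifnb1, Il10 and Acod1 the value in the other group was likewise under that of 3 fragments, so differences in these 4 genes were not detectable. Il12b had 0.117 in HSF WT, against 0.0833 for 3 fragments in HSF V30M.

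The list of endogenous ligands and the receptor RAGE held genes that differed in both directions, with 2 of 6 higher and 1 lower in HSF V30M past the fold and a median log2 ratio of 0.30. S100a9 and S100a8, the subunits of calprotectin, a ligand of Tlr4, were higher in HSF V30M. S100a9 had 59.0 FPKM in HSF V30M and 13.8 FPKM in HSF WT, and S100a8 had 12.6 and 3.48. Bgn, a matrix proteoglycan that can engage Tlr2 and Tlr4, was the most abundant gene of the list and was lower, with 116 in HSF V30M against 221 in HSF WT. Ager, which encodes RAGE, had the lowest FPKM of the list with 3.65 and 2.35, and did not pass the fold.

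**Figure D3:**
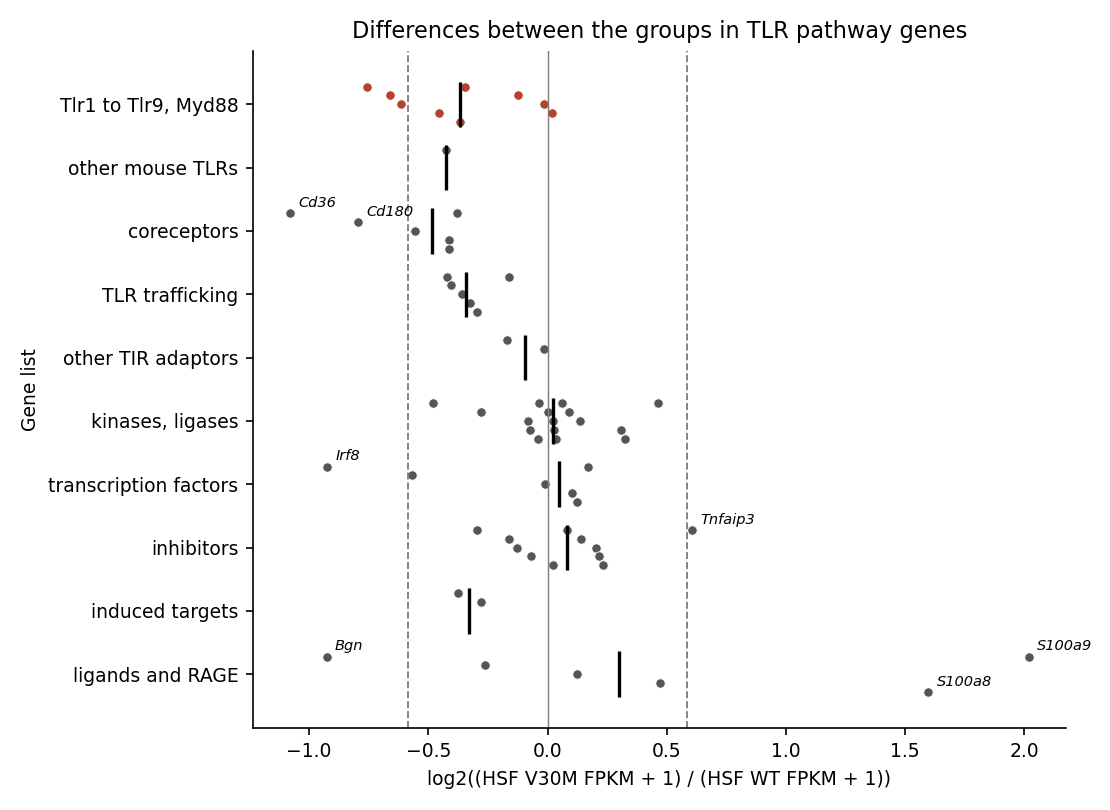
Log2 ratio between the groups (HSF V30M over HSF WT) for each gene whose mean FPKM reached 1, by list; points are genes, short vertical bars are list medians and dashed lines the 1.5-fold limits, with pathway genes past a limit named. All points of the coreceptor and trafficking lists lie left of 0, and S100a9 and S100a8 lie farthest to the right.

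Markers of the cells that can carry these receptors also differed between the groups. They are given beside the receptors, and their part in the receptor values was not tested. For scale, 49.6% of all genes whose mean FPKM reached 1 had a lower FPKM in HSF V30M. By the fold rule 8.44% were lower and 8.22% higher. No gene of the 14 marker lists, 101 genes in all, was listed at 0 in either group, and 2 of the genes, S100a8 and S100a9, also stand in the ligand list.

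Macrophages are the main receptor-bearing immune cells of nerve. Of 12 macrophage genes, 9 had a lower and 3 a higher FPKM in HSF V30M, and 4 were lower past the fold. Those 4 were C1qb, C1qc, Cd68 and Aif1, and the 3 higher ones were Mertk, Adgre1 and Fcgr1. The median log2 ratio of the 12 was -0.48, and their summed FPKM was 472 in HSF V30M against 736 in HSF WT, a ratio of 0.64. The most abundant was Lyz2, with 194 FPKM in HSF V30M and 266 FPKM in HSF WT. Monocyte genes differed less, with a median of -0.25, sums of 29.8 and 32.7, and 1 of 6 higher past the fold, which reached the minimum mean only through HSF V30M. F13a1 was the most abundant, with 12.5 in HSF V30M against 15.4 in HSF WT.

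Lymphocyte genes were scarce and mostly lower in HSF V30M. All 8 B cell genes listed had a lower FPKM in that group, with a summed FPKM of 2.86 in HSF V30M against 24.9 in HSF WT. The 4 of them past the fold reached the minimum mean only through HSF WT. Cd79a, of the B cell receptor complex, had the highest mean with 0.65 and 7.09. Among 7 T cell genes, 6 had a lower FPKM, with sums of 3.60 and 14.7 and with Trac at 1.2 and 3.43. Of the 4 past the fold, 3 reached the minimum only through HSF WT, so these counts are in part set by the filter. B cells are known to carry Tlr7, Tlr9 and Cd180, and conventional dendritic cells Tlr3.

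Dendritic cell genes were sparse. Of 6 conventional dendritic cell genes, 4 had a mean FPKM of at least 1 and 1 of these was lower past the fold, with sums over the list of 11.6 in HSF V30M against 17.2 in HSF WT and with Zbtb46 the most abundant at 5.6 and 7.63. Of 6 genes of plasmacytoid dendritic cells, which carry Tlr7 and Tlr9, 3 had that mean and 1 was lower past the fold, a gene that reached the minimum only through HSF WT. Their sums were 30.2 and 37.3, most of it from Bst2, which other cells also express, with 27.5 and 29.1.

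Neutrophil genes went the other way. Of 10 listed, 7 had a mean FPKM of at least 1, of which 6 were higher and 1 lower in HSF V30M past the fold. The summed FPKM of the list was 108 in HSF V30M against 32.9 in HSF WT, with S100a9 the most abundant. Of the mast cell genes, 3 of the 5 with that mean were lower past the fold, with sums of 127 and 199 and with Tpsb2 at 48.1 and 76.7.

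Of 22 genes of Schwann cells, endothelium and fibroblasts, 2 were higher and 0 lower past the fold, against 8.22% and 8.44% of all genes. Of 10 Schwann cell genes, 1 was higher past the fold, and their median log2 ratio was 0.23, with sums of 12776 in HSF V30M against 11162 in HSF WT. Endothelial genes had a median of 0.12, sums of 297 and 243, and 1 of 6 higher past the fold, with the highest mean in Egfl7 at 95.5 and 78.6. For fibroblasts the median was -0.068 and 0 of 6 passed the fold, with sums of 2206 and 2267 and with Dcn at 1331 and 1320.

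Genes of fat, muscle and blood also differed between the groups. Of 6 adipocyte genes, 3 were lower past the fold, with sums of 1198 in HSF V30M against 1793 in HSF WT and with Fabp4 at 462 and 722. All 5 skeletal muscle genes whose mean FPKM reached 1 were lower past the fold, with sums of 39.1 and 143 and with Ckm at 8.97 and 43.8. Of 6 erythrocyte genes, 5 were higher past the fold, 1 of which reached the minimum only through HSF V30M, with sums of 291 and 101 and with Hbb-bs at 111 and 37.1. These genes moved with the group labels, and their part in the receptor levels was not tested.

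**Figure D4:**
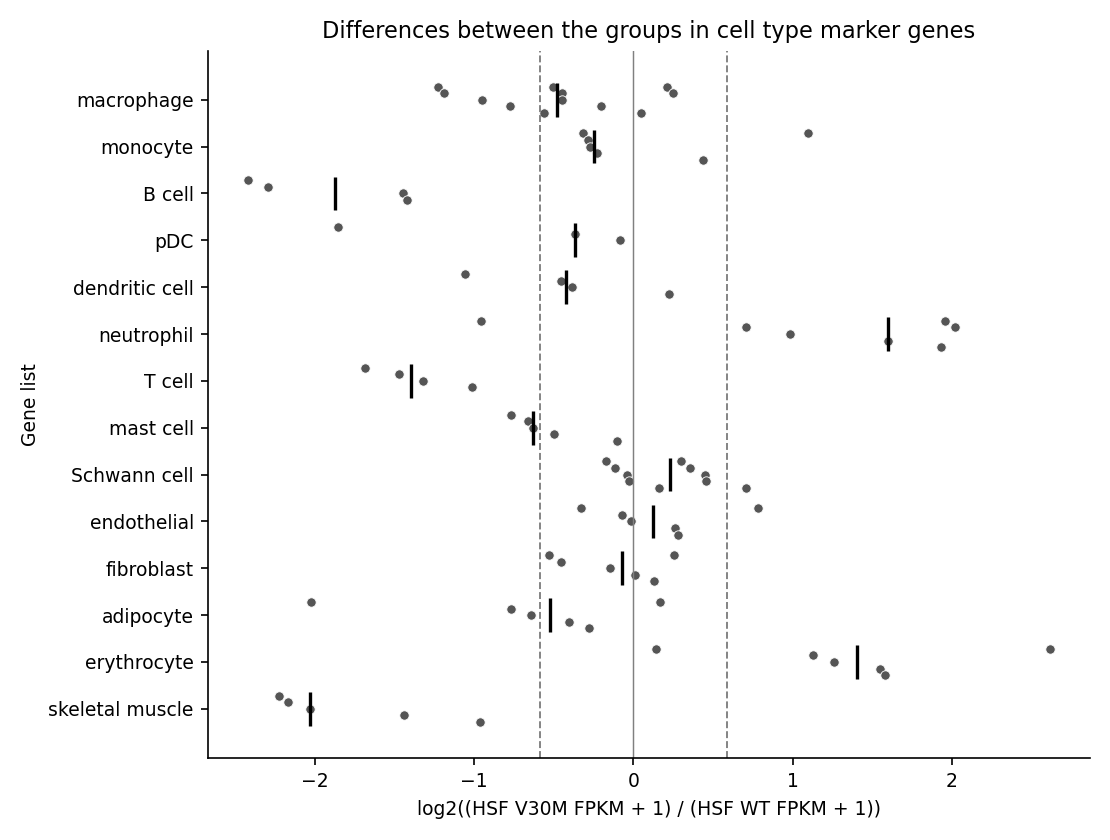
Log2 ratio between the groups (HSF V30M over HSF WT) for each cell type marker gene whose mean FPKM reached 1, by list (pDC, plasmacytoid dendritic cell); points are genes, short vertical bars are list medians and dashed lines the 1.5-fold limits. B cell, T cell and skeletal muscle genes lie left of the lower limit, neutrophil and erythrocyte medians lie right of the upper limit, and macrophage genes spread from below the lower limit to above 0.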

How the data were processed

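RNA of sciatic nerve was sequenced by the authors in 2 mice per group by the labels. Per the submitters' notes, STAR, Cufflinks, Cuffdiff and GRCm38 were used; versions, the gene annotation and strand setting are not given in the sources used here. The deposited FPKM values are the Cuffdiff estimates of each group, written with decimal commas, in HSF V30M rounded to 2 decimals. The table's columns of log2 fold change, test statistic, p-value, q-value and significance hold the authors' own comparison and were not used.

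Here log2((HSF V30M + 1) / (HSF WT + 1)) was computed, leaving out 23 genes with too many alignments. The fold was 1.5 and the minimum mean FPKM 1. No test between mice was possible from these values. Genes named are the 10 members, pathway genes past the fold or highest or lowest in their list, and the most abundant marker of most cell types, both by mean FPKM. Tlr12, Gm45542, Acaa1a, Ttr, Hsf1, Ccl2 and the induced targets at 0 were named besides, after their values had been seen. So were the macrophage genes past the fold or higher in HSF V30M. The members and lists were chosen with earlier results of these data known.

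Read totals are not in the table, but low values of single-transcript genes pile up at what 1 fragment is worth. With 200 bases taken off the transcript length, FPKM times effective kilobases peaked in HSF V30M at 0.0390 and 0.0461, and for HSF WT the peaks were 0.0482 and 0.0650, taken as the libraries of each group, over 17276 genes alone in their locus. Fragment numbers run from the shortest transcript and larger worth to the longest transcript and smaller worth. Intervals use the larger worth, have a level of 95% and cover counting error only.

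Transcripts and positions are from GENCODE M21, which holds 50369 of the 50593 gene identifiers. Promoter windows are from RefSeq (GRCm38.p6). Computation was done in Python 3.11.15 with scipy 1.17.1, pandas 2.3.3 and numpy 2.4.6, plots were drawn with matplotlib 3.10.9, and the fold rule and the fragment worth were tested on simulated data. Alternatives were a pseudocount of 0.1 or none, no minimum or a minimum of 5, a fold of 2, and median-of-ratios scaling.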

Additional observations from a re-analysis of the deposited data

How the results depend on the processing

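No paired analysis was possible because mice of a group are merged into 1 FPKM in the table, and no replicate could be left out either. The count of 3 members lower past the fold was 3 with median-of-ratios scaling and without a minimum mean, and 4 with a pseudocount of 0.1 or none. It was 0 with a fold of 2, on the FPKM + 1 scale, and 0 with a minimum mean FPKM of 5, which leaves 2 members. The median log2 ratio of the members was -0.37 as reported, -0.54 with a pseudocount of 0.1, -0.58 with none and -0.052 with the minimum of 5. The count of 7 pathway genes past the fold was 11 with a pseudocount of 0.1 and 11 with none, 8 without a minimum, 6 with a minimum of 5 and 3 with a fold of 2. Over all genes, 2603 passed the fold in either direction, 3395 with a pseudocount of 0.1, 3515 with none and 3606 without a minimum. The count was 1378 with a minimum of 5 and 1237 with a fold of 2. It was 1680 among genes with a mean FPKM from 1 to 10, chosen after seeing the data. The cause of the shifts under another minimum, range or fold is that fewer or more genes are counted or the limit is higher, and with a smaller pseudocount it is that the ratios of low genes widen.

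Other pseudocounts cannot change the sign of a ratio, and the scaling factors of 1.0012 and 0.99876 hardly move one, so these settings are no check of direction. Of 20 fragment numbers, 19 lay outside the counting interval of the lower estimate when the longest transcript and the smaller fragment worth were used together. For Tlr2 and Tlr9, with 1 transcript each, only the worth differs. On the shortest transcript Tlr1 and Tlr7 rest on 2 fragments in each group, and on the longest Tlr1 has the fewest, 28 and 43. With 1 value per group, differences between mice, and between the nerves' content of fat, muscle and blood, cannot be told apart from the genotype.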
